A study of Homo sapiens with 2 samples.

Results

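Mitochondrial ribosomal proteins were followed in RNA of Molm13 cells. The set holds every gene whose symbol begins with MRPL or MRPS, then a number and at most 1 letter A, B or C, which found 78 of the 50868 genes in the table. By name, 49 belong to the large subunit (MRPL) and 29 to the small subunit (MRPS). The rule uses gene names and no measured value.

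The mitochondrial ribosome, or mitoribosome, translates the few mRNAs that mitochondrial DNA encodes, all of them for subunits of the oxidative phosphorylation complexes. Its rRNAs are made in the mitochondrion, while all of its proteins are encoded in the nucleus, made on cytosolic ribosomes and imported. Some of these proteins descend from those of bacterial ribosomes and others were gained in mitochondria. Mitochondrial translation is of interest in acute myeloid leukemia (AML) because AML cells often rely on oxidative phosphorylation.

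Molm13 is an AML cell line of human origin with the KMT2A::MLLT3 fusion. RNA enriched for mRNA was sequenced from 1 culture given the empty vector (genotype Vector, the overexpression control) and 1 culture given the UNC5B construct (genotype OE-UNC5B). Per the methods of the study, UNC5B was delivered by lentivirus under a CMV promoter with a FLAG tag, mCherry and a puromycin resistance gene, and infected cells were screened with puromycin; no cloning step is described. Both cultures grew in RPMI medium with fetal bovine serum and antibiotics, and no drug treatment is given in the labels. UNC5B, a receptor for netrin-1, had 0 reads in both libraries, where 3 reads would be 0.219 CPM (reads scaled to library size) for Vector and 0.192 CPM for the other, so the overexpression was not visible and every direction below rests on the labels. The second library is therefore called the library labelled OE-UNC5B.

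The libraries held 13715566 and 15637137 counted reads. All 10 AML and myelomonocytic markers were read in both, with 247 to 51742 reads in Vector and 443 to 23700 in the other library. Of these, LYZ (51742 to 23700 reads) and MPO (3363 to 1553) fell, MEIS1 (247 to 542), PTPRC (1592 to 3102), HOXA9 (800 to 1303) and FLT3 (4067 to 6395) rose, and the median log2 fold change of the 10 was 0.15. Of 5 fibroblast markers DCN and POSTN were at 0 in both libraries, COL1A1 had 21 and 9 reads, COL1A2 8 and 2, and LUM 2 and 0. Of 5 endothelial markers KDR, CDH5 and TEK were at 0, VWF had 1 and 2 reads, and PECAM1, which myeloid cells also express, 1626 and 1471. Of 5 markers of epithelium and HEK293, the packaging line, KRT18 had 5 and 2 reads and KRT8, EPCAM, CDH1 and PAX2 were at 0. The part that the shift in myeloid markers has in the results below was not tested. In RNA of a whole culture, fewer cells with a transcript and less of it per cell cannot be told apart.

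Promoters of the members were searched for letters bound by known regulators, which the choice by name did not use. RefSeq promoters of GRCh38.p14, from 250 bases before to 50 bases after each start, were found for 69 of the 78 members. The letters CCGGAAG, a core that ETS factors such as GABP bind, were present on either strand in 29 member promoters (42.0%), against 10.3% of all 35116 promoters and 23.1% of the 7166 promoters of genes with at least 150 reads in Vector. The letters AAGATGGC, the core bound by YY1, were present in 20 (29.0%), against 2.89% and 6.84%. In 15 of these 20 a YY1 match began at or after the transcription start. Both cores were present in 8 promoters and at least 1 of them in 41. They share the letters AAG, and their matches overlapped in 0 of these promoters. CGCATGCG, the core of NRF1, a regulator of nuclear genes for mitochondria, was present in 3 promoters (4.35%), against 2.02% and 4.56%. A match describes these letters in this window and is not a binding site.

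The following stretches of 120 bases before the start of 5 members, from RefSeq and in GRCh38.p14, show the ETS letters in genes that moved differently and the NRF1 letters in MRPL17. By the 1.2-fold rule of the comparison between libraries, MRPL20, MRPL17 and MRPS26 fell, MRPL58 rose and MRPS31 was called in neither direction. Capitals mark matches to CCGGAAG, to CGCATGCG or to GGGCGG (the letters of SP1 sites), each on either strand. None of these stretches overlaps an exon of another gene.
MRPL20, chr1:1407294-1407413 on the minus strand: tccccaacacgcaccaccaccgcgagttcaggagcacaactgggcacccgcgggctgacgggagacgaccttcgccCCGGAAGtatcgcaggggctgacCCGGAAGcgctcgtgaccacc
MRPL17, chr11:6683341-6683460 on the minus strand: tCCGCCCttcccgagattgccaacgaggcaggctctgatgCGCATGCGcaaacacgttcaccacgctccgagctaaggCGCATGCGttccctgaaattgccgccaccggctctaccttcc
MRPS26, chr20:3045932-3046051 on the plus strand: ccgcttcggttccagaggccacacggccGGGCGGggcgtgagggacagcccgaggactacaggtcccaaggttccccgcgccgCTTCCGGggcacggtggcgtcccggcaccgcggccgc
MRPL58, chr17:75012550-75012669 on the plus strand: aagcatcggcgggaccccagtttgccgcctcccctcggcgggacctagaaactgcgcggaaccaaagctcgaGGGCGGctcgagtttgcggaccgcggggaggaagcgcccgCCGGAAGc
MRPS31, chr13:40771191-40771310 on the minus strand: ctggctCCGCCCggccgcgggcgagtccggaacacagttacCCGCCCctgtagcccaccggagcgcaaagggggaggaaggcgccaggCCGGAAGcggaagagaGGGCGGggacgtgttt

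MRPL58, which rose, and MRPL20, which fell, thus both carry ETS letters. The median log2 fold change was -0.21 for members with an ETS match and -0.25 for those without. For YY1 the medians were -0.23 with and -0.23 without a match, and for SP1, whose letters were in 60.9% of member promoters against 45.0% of all and 71.8% of those of genes with at least 150 reads, they were -0.25 and -0.21. For NRF1 they were -0.33 over 3 members and -0.23, for CCAAT -0.26 and -0.21, and for CACGTG, an E-box, -0.22 and -0.23. TGATGNAA, searched for ATF4, was present in 1 member promoter (MRPL55, with a log2 fold change of -0.58), or 1.45%, against 3.62% of all promoters and 1.54% of those of genes with at least 150 reads. CACGTG was present in 8.70% of member promoters, against 7.26% and 11.3%, and CCAAT in 29.0%, against 34.6% and 37.8%.

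All members were expressed. Reads per member ranged from 174 to 2233 in Vector, with a median of 747.5, and from 157 to 2656 in the other library, with a median of 708. Together the members took 67422 of the Vector reads and 69732 of the other library's reads, which is 0.492% and 0.446% of all counted reads. At these depths the 95% counting interval of a member's log2 fold change had a median half-width of 0.15.

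Levels between genes are compared here only per length. On the deposited FPKM scale (reads scaled to gene length and library size), the highest members in Vector were MRPL12 at 73.6, MRPL18 at 69.3, MRPS10 at 59.5 and MRPS26 at 58.1, and the lowest were MRPS33 at 3.49, MRPL10 at 3.37, MRPL46 at 2.99 and MRPL55 at 1.61. The FPKM order was nearly the same in both libraries (Spearman's rho 0.96 over 78 genes of 2 libraries). The length that the FPKM values imply was above the summed exon length in GENCODE 44 for 72 members, and above the span of the gene in the file for 17, so the order between genes depends on that length. Per kilobase of the canonical GENCODE transcript, MRPL33 was highest at 272 CPM per kb, followed by MRPL18 at 145 and MRPL12 at 122, and MRPL30 was lowest at 5.05. MRPL18 and MRPL12 were thus among the highest members on both scales.

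The comparison of the library labelled OE-UNC5B with Vector asks whether RNAs of the mitoribosome differed with the UNC5B construct. More members were lower than higher. At a change of at least 1.2-fold (0.26 on the log2 scale) and an adjusted p-value under 0.05, 35 of 78 members fell and 6 rose, beside 19.1% of the 15384 tested genes called lower and 18.7% called higher. Among the 9179 genes with at least 150 reads in Vector, these shares were 25.7% and 22.5%. Every member passed this limit, and the set has no upper bound on reads. The members called lower were 44.9% of the set and those called higher 7.69%. At 2-fold, MRPL34 alone was called higher and 0 members lower, where 3.39% of all genes were called higher and 3.39% lower, and 1.54% and 1.80% of the genes with at least 150 reads. Reads were compared by an exact binomial test, and its p-values were adjusted after Benjamini-Hochberg over all tested genes. The test compares these libraries and not the conditions, since with 1 library per group there is no replicate check, and its intervals cover counting error alone.

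The median log2 fold change of the 78 members was -0.25, against -0.01 over all tested genes, and 62 members were below 0 and 16 above. The remaining 37 members were called in neither direction, 17 of them with an adjusted p-value under 0.05 but a smaller fold. MRPL47 at -0.26 was the last member inside the fold limit, and MRPS11 and MRPL44, also at -0.26, lay just outside. MRPS17 passed the fold with 174 and 164 reads but not the exact binomial test (Benjamini-Hochberg adjusted p = 0.0851). With an assumed coefficient of variation of 0.1 between libraries in edgeR's exact test, 7 members were lower and 1 higher, and with 0.2 these were 0 and 1.

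**Figure D1:**
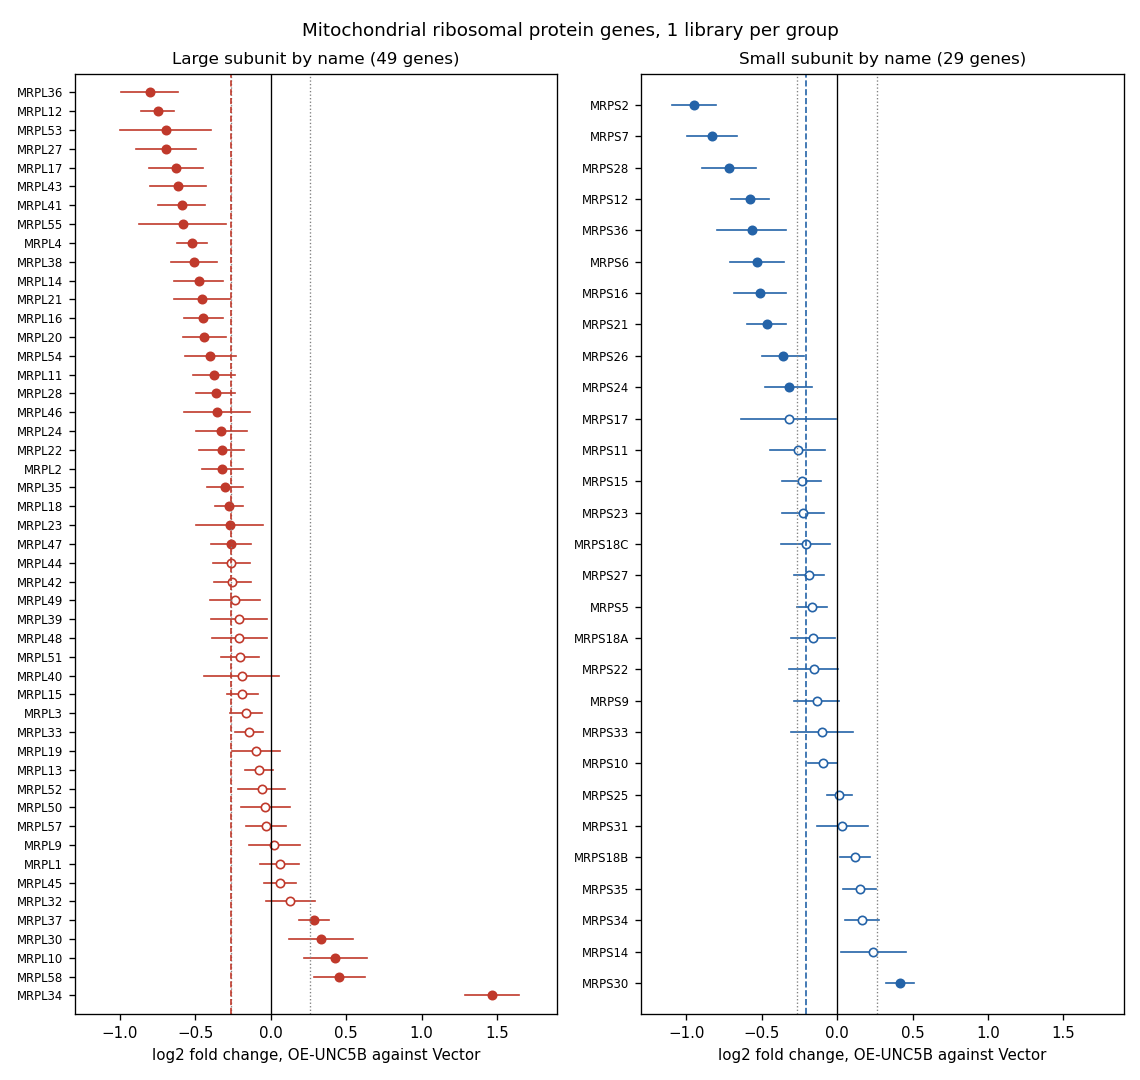
Log2 fold change of each of the 78 members, library labelled OE-UNC5B against Vector, for the large subunit (left, red) and the small subunit (right, blue). Points are values with 95% counting intervals, filled where the member was called at 1.2-fold, dotted lines mark 1.2-fold, and dashed lines the medians of -0.26 and -0.21; MRPL34 at 1.47 stands apart from the other members.

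The largest falls were in MRPS2, MRPS7, MRPL36, MRPL12, MRPS28 and MRPL53. MRPS2, a small subunit protein with a bacterial counterpart, fell from 997 to 609 reads, or from 73.9 to 38.3 CPM (log2 fold change -0.95, 95% interval -1.10 to -0.80; adjusted p = 3.41e-37 in the exact binomial test with Benjamini-Hochberg adjustment). MRPS7, a protein of the head of the small subunit, fell from 763 to 506 reads (-0.83, -0.99 to -0.66). MRPL36, one of the smallest large subunit proteins, fell from 569 to 384 reads (-0.80, -0.99 to -0.61). The counting intervals of these 3 members overlap, so their order is not resolved.

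MRPL12, which forms the flexible stalk that recruits translation factors, fell from 1657 to 1161 reads (-0.75, -0.86 to -0.64). MRPS28 fell from 632 to 453 reads (-0.72, -0.89 to -0.54). MRPL53, a protein without a bacterial counterpart, fell from 216 to 157 reads (-0.70). Its value is uncertain, since exons of CCDC142 on the same strand, with 91 and 151 reads, cover 72.8% of its exonic bases. MRPL12 shares 69.5% of its exonic bases with a gene listed at 0 reads in both libraries.

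MRPL34 had the largest rise. This small basic protein of the large subunit, also present in bacteria, rose from 337 to 1098 reads, or from 25.0 to 69.1 CPM (1.47, 1.29 to 1.65; adjusted p = 1.27e-67, exact binomial test with Benjamini-Hochberg adjustment). Its interval does not overlap that of any other member. ABHD8, whose exons cover 14.6% of its exonic bases on the opposite strand, had 12 and 15 reads.

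The other rises were smaller. MRPL58, which hydrolyses peptidyl-tRNA on stalled mitoribosomes, rose from 480 to 775 reads (0.45, 0.29 to 0.62). MRPL10, which anchors the stalk, rose from 314 to 498 reads (0.43, 0.22 to 0.64). MRPS30 rose from 1541 to 2422 reads (0.42, 0.32 to 0.51). Despite its name, MRPS30 is placed in the large subunit in structures of the mitoribosome. MRPL30 rose from 302 to 448 reads (0.33, 0.12 to 0.55) and MRPL37 from 1426 to 2050 (0.29, 0.19 to 0.39). These 5 intervals overlap one another. MRPL30 was under 1.2-fold when a trend on gene length and GC content was subtracted (0.20).

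**Figure D2:**
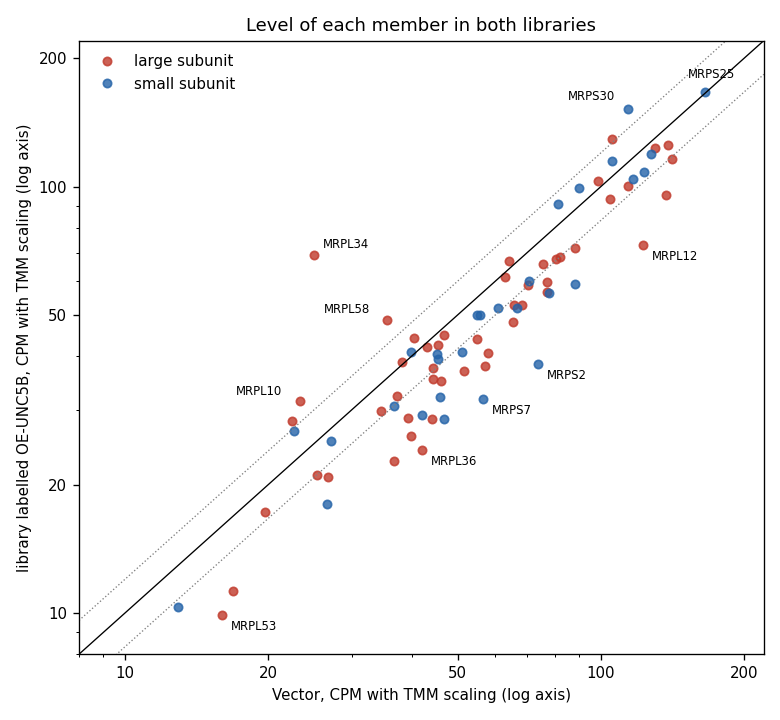
Level of each member in Vector (x axis) and in the library labelled OE-UNC5B (y axis), in CPM with TMM scaling on log axes, with the large subunit in red and the small subunit in blue. The solid line marks equal levels and the dotted lines 1.2-fold; MRPL34 (25.0 and 69.1 CPM) lies farthest above and MRPS2 (73.9 and 38.3 CPM) farthest below the line.

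The medians of large and small subunit members, assigned by name, lay close together. MRPS30 (0.42) and MRPS18A (-0.16), which structures place in the large subunit, count as small in this comparison. Of the 49 large subunit members, 25 fell and 5 rose, with a median log2 fold change of -0.26 and a range of -0.80 to 1.47. Of the 29 small subunit members, 10 fell and 1 rose, with a median of -0.21 and a range of -0.95 to 0.42. The shares that fell, 51.0% and 34.5%, stand beside 25.7% of genes with at least 150 reads and 19.1% of all tested genes. The large minus small difference of the medians was -0.06, and it was 0.00 once a trend on gene length and GC content was subtracted, where 19 large and 11 small subunit members were lower. Genes are not replicates, so the difference has no test.

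Large subunit genes took 40817 of 67422 member reads in Vector, or 60.5% (95% Clopper-Pearson interval 60.2% to 60.9%). In the library labelled OE-UNC5B they took 41623 of 69732, or 59.7% (59.3% to 60.1%). With MRPS30 and MRPS18A counted in the large subunit, where structures place them, the shares of reads were 63.9% (63.6% to 64.3%) and 64.3% (63.9% to 64.7%), so the direction turned and the intervals overlapped. With the same placing, the shares of summed FPKM were 68.0% and 67.8%. Among the small subunit members, MRPS30 was the 1 that rose.

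The members were also grouped by origin, as proteins with a counterpart in bacterial ribosomes or proteins found in mitochondria alone. Of the 46 members with a bacterial counterpart, 27 fell (58.7%) and 3 rose, with a median log2 fold change of -0.32. Of the 31 mitochondria-specific members, 7 fell (22.6%) and 3 rose, with a median of -0.19. The share that fell in the mitochondria-specific class lies between the 19.1% of all tested genes and the 25.7% of genes with at least 150 reads. MRPS36, now known as a subunit of the oxoglutarate dehydrogenase complex, was in neither class and fell from 359 to 286 reads (-0.56, -0.79 to -0.34).

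Within each subunit, MRPS30 and MRPS18A were placed by structure. In the large subunit, 19 of 30 members with a counterpart fell and 3 rose (median -0.31), against 6 of 21 and 3 of the specific ones (median -0.21). In the small subunit, 8 of 16 with a counterpart fell (median -0.32), against 1 of 10 specific ones, MRPS26 (median -0.04). That median was 0.0035 with library totals and -0.10 with the trend subtracted, where MRPS26 lost its call, MRPS23 gained a lower call and MRPS34 a higher one. The classes had a like GC content, with medians of 49.0% and 48.3%, and canonical transcripts of 1217 and 1398 nt. With the length and GC trend subtracted, 23 of 46 and 6 of 31 were lower. These are counts of genes in 1 library per group, and the difference between the classes was not tested.

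By place in the ribosome, the stalk was split. MRPL12 and MRPL11, at its base, fell (MRPL11 from 922 to 837 reads, log2 fold change -0.38), while MRPL10 rose. Of the 7 proteins at the exit of the peptide tunnel, which faces the inner membrane, 4 fell (57.1%, beside 44.9% of all members). These were MRPL24 (600 to 563 reads, -0.33), MRPL22 (742 to 697, -0.33), MRPL23 (342 to 334, -0.27) and MRPL47 (950 to 932, -0.26). MRPL23 and MRPL47 lie at the edge of the fold limit and were under it with library totals, DESeq2 size factors or FPKM in place of TMM-scaled reads. MRPL22 was under it with 1 added to FPKM. With the length and GC trend subtracted MRPL23 was at -0.05 and MRPL24 at -0.20, and 2 of the 7 (MRPL22 and MRPL47) were lower. MRPL44 (1106 and 1087 reads, -0.26), MRPL39 (465 and 473, -0.21) and MRPL45 (1332 and 1635, 0.06), the receptor that holds the ribosome at the membrane, were called in neither direction.

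In the central protuberance, which contacts the tRNAs and the small subunit, 3 of 5 members fell, beside 44.9% of all members. MRPL38 fell from 782 to 648 reads (-0.51), MRPL46 from 361 to 332 (-0.36) and MRPL18 from 1902 to 1848 (-0.28), while MRPL48 (504 and 514 reads, -0.21) and MRPL40 (266 and 274, -0.19) were not called. MRPL18 was under the fold limit with library totals, DESeq2 size factors or FPKM, and MRPL46 with 1 added to FPKM. With the length and GC trend subtracted MRPL38 alone of the 5 was lower. The MRPS18 family has 3 paralogues, which occupy different places in the ribosome, and 0 of them were called in either direction by the exact binomial test and fold. MRPS18C had 614 and 626 reads (-0.21), MRPS18A 753 and 795 (-0.16) and MRPS18B 1425 and 1824 (0.12).

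Of 12 members known from combined oxidative phosphorylation deficiency, an inherited disorder of mitochondrial translation, 5 fell and 0 rose by the same rule. The 5 were MRPS2, MRPS7, MRPL12, MRPS28 and MRPS16 (618 to 511 reads, -0.51). Their share, 41.7%, is near the 44.9% of all members.

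The members were next ordered by GC content. The GC content of the canonical transcript ran from 34.8% to 66.7%. Among the 26 members of lowest GC content 5 fell, among the 26 in the middle 12 and among the 26 of highest GC content 18, and the medians were -0.15, -0.27 and -0.36. The share in the group of lowest GC content was 19.2%, beside 19.1% of all tested genes and 25.7% of genes with at least 150 reads. Both of these backgrounds cover genes of any GC content. All tested genes with the same GC content had medians of 0.09, -0.00 and -0.11, so each group lay below the genes of its own range. Across the 78 members, GC content and log2 fold change had a Pearson's r of -0.25 and a Spearman's rho of -0.38, and across 15198 tested genes -0.13 and -0.18. For the log2 length of the canonical transcript these were 0.20 and 0.36 across the members, and 0.13 and 0.20 across the tested genes. Members had a median GC content of 48.2% and length of 1242 nt, against 48.4% and 2712.5 nt over all tested genes. Genes of 1 library are not independent, so these are descriptions. With the joint trend on length and GC content subtracted, 30 members were lower and 6 higher, with a median of -0.21, against -0.04 over all tested genes. These calls used the subtracted change with the adjusted p-value of the unsubtracted binomial test. MRPL19 (-0.39) and MRPS17 (-0.29) passed the fold after subtraction and were thus not called. Of the 35 that fell, 26 were still lower, 9 were not, and MRPS11, MRPL42, MRPS23 and MRPS18C were lower in addition. Among the higher, MRPL30 lost its call and MRPS34 gained one. The parts of GC content and of length in the falls were not tested further.

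**Figure D3:**
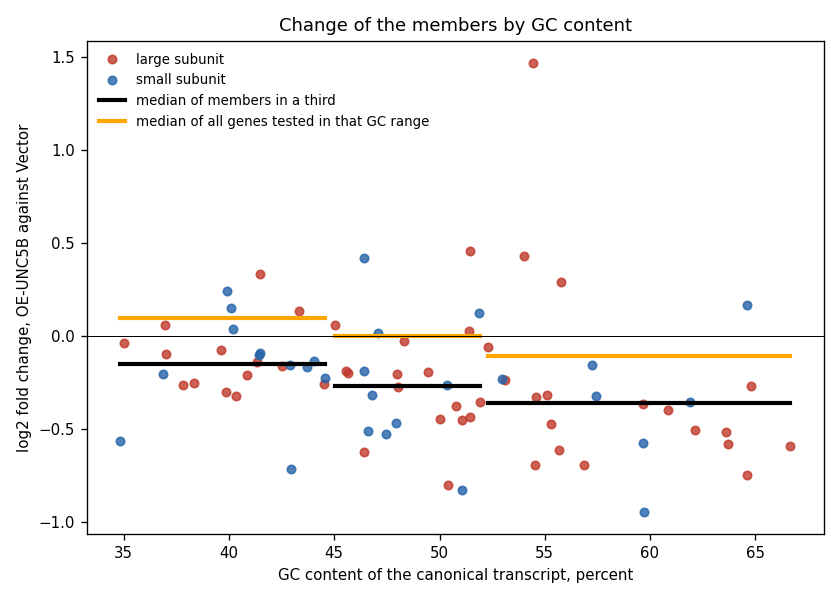
Log2 fold change of each member (y axis, library labelled OE-UNC5B against Vector) by GC content of its canonical transcript (x axis, percent), large subunit in red and small subunit in blue. Black lines are medians of the members in 3 groups of 26 by GC content (-0.15, -0.27 and -0.36) and orange lines medians of all tested genes in the same range (0.09, -0.00 and -0.11).

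Several members share sequence or position with other genes. In GENCODE 44, 41 of the 78 have exons that overlap those of another gene, 18 on the same strand and 30 on the opposite strand, and the use of strand in counting is not given in the sources used here. Without these 41 the medians were -0.28 for the large and -0.16 for the small subunit, a difference of -0.11. Pseudogenes named after members have 69 rows, 55 of them at 0 reads in both libraries, and took 348 and 520 reads, or 0.516% and 0.746% as many as the members. MRPS31P5 (163 to 269 reads, 0.48) and MRPS31P4 (66 to 135, 0.79) rose, and MRPS31 had 539 and 650 reads (0.03), so reads of these near copies may be split.

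A divergent protein-coding partner, with its start within 1000 nt on the opposite strand, was found for 17 members. Gaps between these starts ran from 6 to 990 nt, and pairs of genes that overlap are not among them. MRPL46 and MRPS11 are partners of each other. Of the other 15 partners 5 fell (33.3%, beside 25.7% of genes with at least 150 reads) and 1 rose, and 8 had the sign of the member. Over the 17 members and their partners, the log2 fold changes had a Pearson's r of 0.19 and a Spearman's rho of 0.11. The pair of MRPL46 and MRPS11 enters these values in both orders. MRPL36 lies beside NDUFS6, a subunit of complex I, which fell from 1517 to 1169 reads (-0.61). MRPL46 and MRPS11 start 63 nt apart and had log2 fold changes of -0.36 and -0.26. MRPL27, which fell from 497 to 362 reads (-0.69), lies beside EME1, which rose from 190 to 294 (0.39).

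Among 5 proteins of the mitoribosome with other names, 3 fell (60.0%, beside 25.7% of genes with at least 150 reads). AURKAIP1 fell from 882 to 689 reads (-0.59), CHCHD1 from 430 to 360 (-0.49) and GADD45GIP1 from 1246 to 1072 (-0.45). DAP3, which binds GTP in the small subunit, had 1629 and 1752 reads (-0.13), and PTCD3, an RNA-binding protein, had 1961 and 2519 (0.12). The median of the 5 was -0.45, or -0.33 with the length and GC trend subtracted, where all tested genes had -0.04.

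Of 28 genes for assembly of the mitoribosome and modification of its rRNA, 9 fell (32.1%) and 3 rose (10.7%), with a median of -0.14 that was -0.05 once the length and GC trend was subtracted. Of all tested genes with at least 150 reads, 25.7% were lower and 22.5% higher. MALSU1, an assembly factor of the large subunit, fell from 385 to 186 reads (-1.28, -1.55 to -1.03) and passed 2-fold. METTL15 and NSUN4, which methylate the small subunit rRNA, fell from 246 to 146 (-0.99) and from 648 to 476 (-0.68), and ERAL1, its chaperone, fell from 661 to 430 (-0.86). NOA1, a GTPase, rose from 726 to 1325 reads (0.63).

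Of 18 translation factors, 6 fell (33.3%, beside the same 25.7%) and 2 rose, with a median of -0.15, or -0.25 with the trend subtracted. C12orf65, now named MTRFR, which rescues stalled mitoribosomes, fell from 299 to 154 reads (-1.19, -1.48 to -0.91). SLIRP, an RNA-binding protein, fell from 478 to 339 reads (-0.73) and TACO1, which activates translation of a cytochrome c oxidase mRNA, from 481 to 381 (-0.57). The elongation factor TUFM fell from 7156 to 6422 reads (-0.39), while the initiation factor MTIF2 rose from 1059 to 1675 (0.42). SLIRP fell while its partner LRPPRC rose from 6155 to 9203 reads (0.34). Of 5 genes for transcription of mitochondrial DNA, the polymerase POLRMT (1959 to 1838 reads, -0.33), TFB2M (718 to 687, -0.30) and TEFM (284 to 272, -0.30) fell, MTERF1 rose from 141 to 267 reads (0.68), and TFAM had 1456 and 1747 (0.03). The 3 of 5 that fell are 60.0%, beside 25.7% of genes with at least 150 reads. The median of the 5, -0.30, was -0.25 with library totals and -0.23 with the trend subtracted, both under the fold limit, so fewer than 3 of them were lower at those settings.

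The mitochondrial genome encodes the RNAs that the mitoribosome contains and translates. The rRNA MT-RNR2 of the large subunit had 88106 and 119270 reads (0.20) and MT-RNR1 of the small subunit 12266 and 12602 (-0.20), both under 1.2-fold. In a library enriched for mRNA, the reads of an rRNA need not follow its amount. Of the 13 mRNAs of mitochondrial DNA, 11 fell (84.6%) and 0 rose by the exact binomial test and fold, with a median of -0.54. Of genes with at least 150 reads 25.7% were lower, and of all tested genes 19.1%. Each of the 13 mRNAs had at least 2209 reads in either library, so their counting error is small. MT-ND6, the mRNA encoded on the other strand, fell from 5528 to 2209 reads (-1.56) and MT-ND3 from 10724 to 7521 (-0.75).

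Lists of other nuclear genes were set beside the members, with 25.7% of genes with at least 150 reads called lower. Of 80 tested nuclear subunits of oxidative phosphorylation, 58 fell (72.5%) and 1 rose, with a median of -0.45, and ATP5MC1 of the ATP synthase fell from 1090 to 581 reads (-1.14). Of the 79 cytosolic ribosomal proteins, 33 fell (41.8%) and 3 rose, with a median of -0.23. The 44.9% of members that fell are thus near the share of cytosolic ribosomal proteins and under that of the oxidative phosphorylation subunits. With the length and GC trend subtracted, the lower shares were 38.5% of members, 26.6% of cytosolic ribosomal proteins and 63.8% of oxidative phosphorylation subunits, beside 18.3% of all tested genes. The differences between the lists were not tested.

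**Figure D4:**
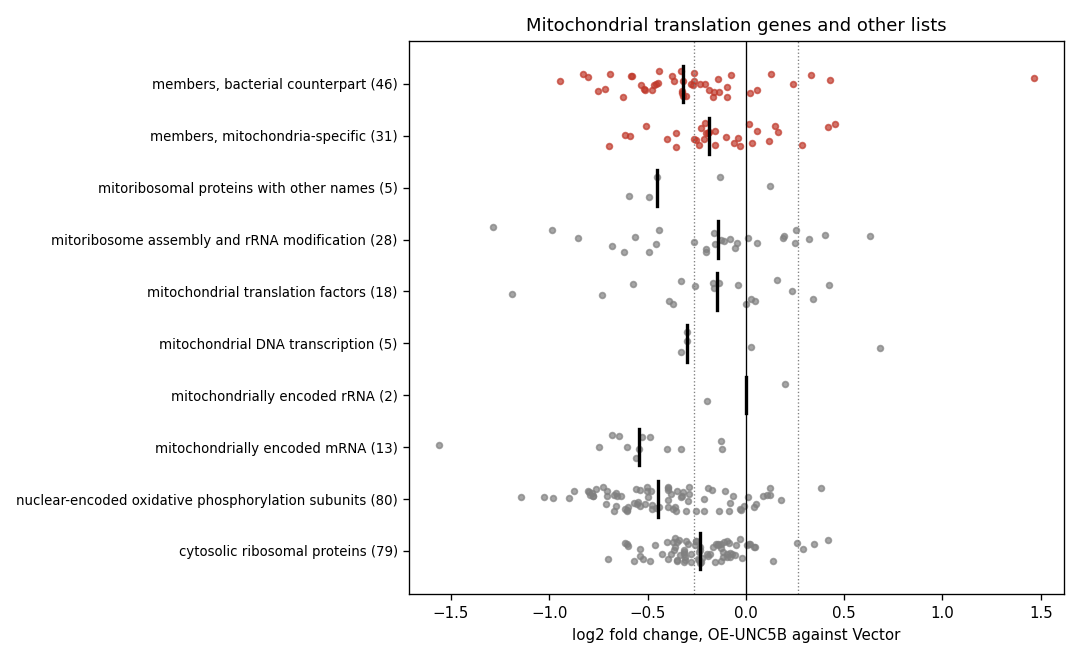
Log2 fold change (x axis, library labelled OE-UNC5B against Vector) of every tested gene in the classes of members (red) and in other lists (grey), with the number of genes in brackets. Black bars are medians and dotted lines mark 1.2-fold; medians were -0.32 and -0.19 for the members with and without a bacterial counterpart, -0.54 for mitochondrially encoded mRNA and -0.45 for oxidative phosphorylation subunits.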

How the data were processed

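RNA-seq was performed on Molm13 cells with 1 library per group. Raw counts of reads per gene and FPKM values were deposited by the authors. The submitters' processing notes name bcl2fastq 2.19, HISAT2 2.0.4, StringTie 1.3.0 and GRCh38, with no roles, and the annotation, the counter and the use of strand are not given in the sources used here. Raw counts were scaled by TMM (edgeR 4.0.16, R 4.3.3), with factors of 0.984 and 1.02. Tests covered the 15384 genes whose reads summed to at least 10, and log2 fold changes had 0.5 reads added. Calls needed an adjusted p-value under 0.05 (two-sided exact binomial test, scipy 1.17.1, Benjamini-Hochberg) and a change of at least 2-fold or 1.2-fold. Clopper-Pearson intervals at 95% cover the reads. With 1 library per group edgeR's quasi-likelihood test could not be fitted. DESeq2 1.42.0 size factors were an alternative, as were library totals, 2 added reads, no filter, at least 50 reads, FPKM with 0.1 or 1 added, a subtracted length and GC trend (statsmodels 0.14.6), fold alone, and edgeR's exact test with assumed coefficients of variation. Calls with the trend subtracted used the subtracted change and the adjusted p-value of the unsubtracted test. Transcript length, GC content and exon overlap came from GENCODE 44, in which 49659 of 50868 gene identifiers were found. The procedure was tested on simulated data.

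The members and gene lists were chosen with earlier results of these data known. The genes named are the 6 largest rises and falls, members called at 2-fold, the 4 highest and lowest by FPKM in Vector, the stalk, tunnel, protuberance and MRPS18 members, and at most 5 called genes of each other list. MRPS26, MRPS16, MRPS36, MRPS11, MRPS17, MRPL19, MRPL27, MRPS31 and its pseudogenes, divergent partners, members with printed promoters, MRPL33, MRPL42, MRPS23, MRPS34, MT-RNR1, MT-RNR2, TFAM, LRPPRC and the members nearest the fold limit were named after their values were seen.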

Additional observations from a re-analysis of the deposited data

How the results depend on the processing

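No paired analysis was possible because each group has 1 library. Under the settings that keep counting error as the only error, 27 to 35 members were lower and 6 to 7 higher at 1.2-fold, with fold alone 36 were lower and 6 higher, and the large and small subunit medians stayed below 0. The counts rest on the assumed spread between libraries. At 1.2-fold, edgeR's exact test called 7 members lower and 1 higher with a coefficient of variation of 0.1, 0 lower and 1 higher with 0.2, and 0 lower and 0 higher with 0.4, where MRPL34 also lost its call at 2-fold (0 higher). These settings assume a spread that 1 library per group cannot give.

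Of 296 values recomputed for 37 named genes, 275 kept their direction and call, 20 kept their direction but not the call, 1 (MRPS18C) gained a call and 0 changed sign. Over all 78 members, subtracting the trend took away 9 lower calls and 1 higher call and added 4 lower and 1 higher. MRPL24, MRPL46, MRPS26 and MRPL30 were among those under the fold limit once the trend was subtracted. The large subunit share of member reads was 63.9% (Vector) against 64.3% with MRPS30 and MRPS18A counted as large. With subunits by name, the large subunit share of summed FPKM was 65.2% against 64.3%.

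With library totals, DESeq2 size factors, FPKM with 0.1 added, FPKM with 1 added and the subtracted trend in turn, the median of the mitochondrially encoded rRNAs was 0.0488, 0.0363, 0.0488, 0.0488 and 0.0376 (0.0015 with TMM), that of the mitochondrially encoded mRNAs -0.49, -0.51, -0.49, -0.49 and -0.46, and that of the small cytosolic ribosomal proteins -0.26, -0.27, -0.26, -0.25 and -0.21. The large cytosolic ribosomal proteins had -0.15 with library totals, both FPKM settings and the trend. The mitoribosomal proteins with other names had -0.33 with the trend subtracted. Over all settings the median of the assembly genes ran from -0.14 to -0.05 and that of the translation factors from -0.25 to -0.08. The median of all tested genes was -0.01 with TMM, and 0.04, 0.03, 0.04, 0.03 and -0.04 with the alternatives in the order above. The cause of these shifts was not tested beyond the scaling itself. Counts below 200 reads in the library labelled OE-UNC5B limit the precision of MRPS17, MRPL53 and MRPL55.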
